A study of Mus musculus with 6 samples.

Results

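The genes of glycolysis, the pentose phosphate pathway and the response to low oxygen were examined on 6 microarrays of mature CD4 SP thymocytes, a late stage that carries CD4 but not CD8. With earlier results of these data known, the genes were chosen by symbol for their place in these pathways and not by their values. The set held 36 genes. Of these, 32 had at least 1 array row that carried their symbol alone, and for each the row with the highest mean over the 6 arrays was kept, as it was for the 19752 genes tested in all. *Gpi1*, *Gapdh*, *Eno1* and *G6pdx* were not analysed here.

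The cells were Vα2hi CD24lo CD4 SP thymocytes sorted from mice with the OT-II transgene, a T-cell receptor restricted by MHC class II. In the dKO group, floxed alleles of *Jmjd3* (*Kdm6b*) and *Utx* (*Kdm6a*), which encode demethylases of trimethylated lysine 27 of histone H3, were deleted by Cre expressed under *Cd4* control, so that deletion takes place in thymocytes of the T-cell lineage. The wild-type group came from Cre-negative mice that carried the OT-II transgene and, by the Methods, floxed alleles that stay intact, and all mice were adult. Each group had 3 arrays, called biological replicates in the sample records. Separate mice are not stated, and p-values therefore reflect the variation among these samples only, which may be technical. RNA came from a sorted population, in which fewer cells of a type and less RNA per cell cannot be told apart. The paper reports that dKO cells of this stage accumulate in the thymus, with reduced *S1pr1*, a receptor that exit from the thymus requires.

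Glycolysis splits glucose into pyruvate, which is either reduced to lactate and exported or oxidized in mitochondria after entry through pyruvate dehydrogenase. The pentose phosphate pathway branches from its start and yields NADPH and ribose. When oxygen is short, the transcription factor Hif1a escapes hydroxylation by the Egln enzymes and destruction through Vhl. It then binds DNA at short motifs, ACGTG among them, and raises transcription of many glycolytic genes. The Egln enzymes, like Jmjd3 and Utx, are dioxygenases that use oxygen and α-ketoglutarate. Resting T-cells oxidize much of their pyruvate, while activated T-cells export a large part of it as lactate.

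The letters ACGTG, a core form of the hypoxia response element, were looked up before each transcription start in RefSeq (GRCm38.p6). Both strands of the 250 bases were read, and the form GCGTG was not searched. There 31 of the 32 measured members (all but *Slc2a3*) had 44 listed starts. ACGTG was present in 20 of the 44 (45.5%), against 16.6% of all 32851 promoters of this length in RefSeq. This share depends on which genes were listed and not on the arrays. The longer motif CACGTG, an E-box that is also bound by Myc, holds ACGTG on both strands and was present in 7 of the 44 (15.9%), against 6.0% of all promoters. ACGTG was present in 10 of 20 promoters of the members that were higher in dKO cells, 6 of 9 of those that were lower and 4 of 15 of those that were not called. Some members have several starts, and counted by gene these were 9 of 15, 5 of 6 and 3 of 10. These are matches of letters, described with no test, and binding was not measured. The promoters of 4 members are printed from 5′ to 3′. Among members called under every alternative, these had the largest changes of their brightest rows (*Bnip3* by that row only). The promoters show a match of ACGTG beside an increase and a decrease and the lack of one beside each. They are those of *Bnip3* (chr7:138909507-138909756, minus strand), *Slc16a1* (chr3:104638414-104638663, plus strand), *Tpi1* (chr6:124814159-124814408, minus strand) and *Pdk1* (chr2:71872974-71873223, plus strand, the first of its listed starts), with CACGTG in capitals.
Bnip3: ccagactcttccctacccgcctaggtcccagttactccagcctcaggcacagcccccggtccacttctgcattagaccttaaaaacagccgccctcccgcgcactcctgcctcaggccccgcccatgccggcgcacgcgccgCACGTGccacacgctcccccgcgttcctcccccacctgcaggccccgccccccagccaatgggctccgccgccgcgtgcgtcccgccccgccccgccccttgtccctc
Slc16a1: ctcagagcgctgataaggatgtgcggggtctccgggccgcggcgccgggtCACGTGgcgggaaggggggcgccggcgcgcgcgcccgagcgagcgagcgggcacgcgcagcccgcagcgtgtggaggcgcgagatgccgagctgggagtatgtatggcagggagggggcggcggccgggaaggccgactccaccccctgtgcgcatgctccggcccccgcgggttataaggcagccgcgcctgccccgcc
Tpi1: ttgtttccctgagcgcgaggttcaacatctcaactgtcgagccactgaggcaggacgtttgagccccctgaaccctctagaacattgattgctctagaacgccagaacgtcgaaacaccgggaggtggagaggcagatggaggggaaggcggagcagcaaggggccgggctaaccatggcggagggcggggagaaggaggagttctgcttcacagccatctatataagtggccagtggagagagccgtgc
Pdk1: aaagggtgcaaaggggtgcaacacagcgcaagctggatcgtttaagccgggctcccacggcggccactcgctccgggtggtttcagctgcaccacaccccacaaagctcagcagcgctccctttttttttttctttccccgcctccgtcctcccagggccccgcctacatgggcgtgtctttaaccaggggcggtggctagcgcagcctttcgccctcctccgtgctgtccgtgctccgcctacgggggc
*Bnip3* rose and *Slc16a1* fell in dKO cells, and both promoters held CACGTG. *Tpi1* rose and *Pdk1* fell, and neither window held ACGTG on either strand. The *Pdk1* window does hold GCGTG, which the search did not cover.

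The deposited values are log2 signals, equalized between arrays by RMA, with array medians between 6.27 and 6.32. Across genes the arrays correlated at 0.998 to 0.999 within a genotype and at 0.991 to 0.993 between genotypes. *Kdm6a* had log2 values of 10.16, 10.11 and 10.20 on the wild-type arrays and of 9.48, 9.40 and 9.58 on the dKO arrays (log2 fold change -0.67, adjusted p = 2.6e-05), and *Kdm6b* differed by -0.09 (adjusted p = 0.324). Which probes of either gene lie in deleted exons was not examined. The mean log2 value of 11 T-cell markers was 11.69 to 11.78 on the wild-type arrays and 11.74 on each dKO array, and within the list *Cd28* rose (0.24) and *Cd5* (-0.43) and *Lat* (-0.15) fell. The 4 measured red cell markers, a cell type rich in glycolytic enzymes, averaged 5.75 to 5.87 and 5.77 to 5.86, below the array medians, with log2 fold changes between -0.02 and 0.04. Of 6 markers of double-positive thymocytes, an earlier stage, *Dntt* (1.52) and *Cd1d1* (0.44) rose, *Rag1* (-0.55) and *Arpp21* (-0.25) fell on the log2 scale, and the mean of the list was 6.40 to 6.69 in wild-type and 6.66 to 6.94 in dKO cells. Of 4 markers of CD8 T-cells *Cd8b1* rose (0.54) and *Runx3* fell (-0.40), and of 8 of macrophages and monocytes *Lyz2* rose (0.81) and *Itgam* (-0.78) and *Cd68* (-0.31) fell, the latter list averaging 5.40 to 5.46 in wild-type and 5.31 to 5.47 in dKO cells. Single markers of other lists were also called, with *Epcam* (0.28) and *Elane* (0.19) higher and *Cd79b* (-0.63) and *Pecam1* (-0.51) lower. The part of other stages and cell types in the changes of the members was not tested.

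Most measured members differed between the genotypes, and more were higher than lower in dKO cells. Of the 32, 16 rose, 6 fell and 10 were not called at an adjusted p of 0.05 (limma, adjusted over all 19752 genes). Without wild-type replicate 2 the count of lower members was 3, and a test without moderated variances called 11 higher and 5 lower. With all arrays and limma 68.8% were called, against 23.1% of all genes, with 50% higher against 13.1% and 18.8% lower against 10%. The members are bright genes. Of the 9876 genes with mean values above the median gene 39.8% were called, and 30 members were among them, of which 21 (70%) were called. The median log2 fold change of the members was 0.18, and that of all genes was 0.01. All 3 dKO values lay above all 3 wild-type values for 18 members and below them for 7, so 25 did not overlap, while 37.7% of all genes did not. Log2 fold changes ran from -0.87 (*Egln3*, -0.47 without dKO replicate 1) to 1.00 (*Bnip3*). From the *Bnip3* row beside the gene's own neighbours the change was 0.43, and the highest was then that of *Tpi1* (0.64).

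**Figure D1:**
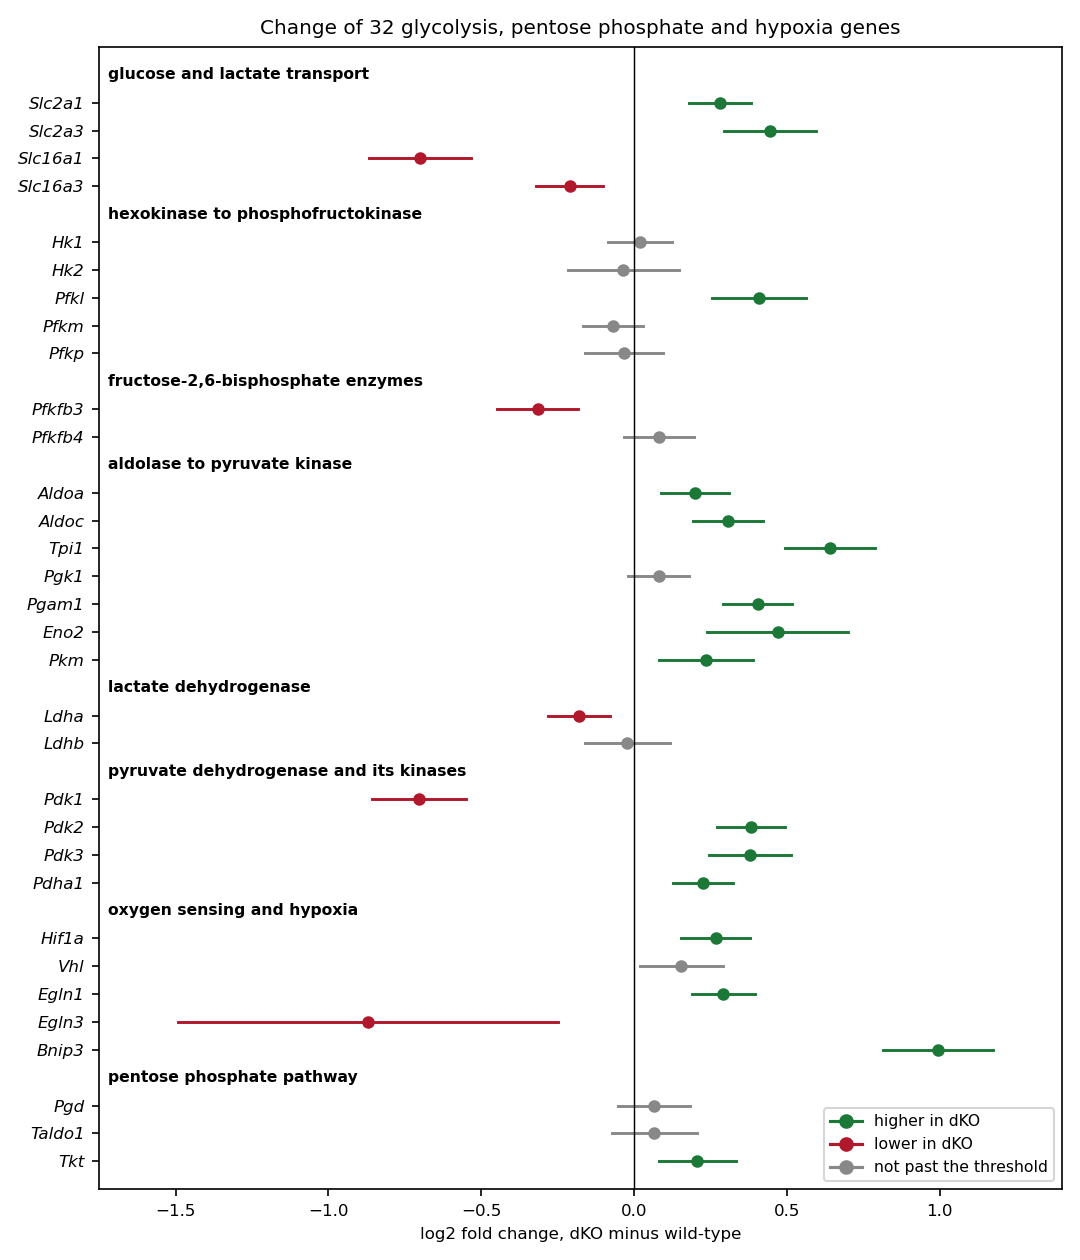
Log2 fold change, dKO minus wild-type, of each of the 32 measured members in the order of the pathway, with 95% confidence intervals from limma and colours for the call. The 7 members from aldolase to pyruvate kinase all lie right of 0, while the transport genes and the pyruvate dehydrogenase kinases lie on both sides.

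The 4 transporters split by what they carry. The glucose transporters *Slc2a1* (GLUT1) and *Slc2a3* (GLUT3) rose, and the monocarboxylate transporters *Slc16a1* (MCT1) and *Slc16a3* (MCT4), which move lactate and pyruvate across the plasma membrane, fell. *Slc2a1* had log2 values of 10.07, 10.08 and 10.13 on the wild-type arrays and of 10.40, 10.35 and 10.38 on the dKO arrays. *Slc2a3* had values of 8.55, 8.68 and 8.82 against 9.08, 9.14 and 9.17. Every dKO array was above every wild-type array for both, and the increases were 1.22-fold (log2 fold change 0.28, SE 0.05, adjusted p = 0.0015) and 1.36-fold (0.44, SE 0.07, adjusted p = 0.00106). *Slc16a1* had values of 8.47, 8.54 and 8.71 in wild-type and of 7.92, 7.74 and 7.94 in dKO cells. *Slc16a3*, the form tied to lactate export in glycolytic cells, had values of 6.83, 6.92 and 6.87 against 6.62, 6.71 and 6.65. Here every dKO array was below every wild-type array. *Slc16a1* kept 61.6% of its wild-type level (log2 fold change -0.70, SE 0.07, adjusted p = 1.13e-04) and *Slc16a3* kept 86.4% (-0.21, SE 0.05, adjusted p = 0.0111, and 0.0571 without wild-type replicate 2).

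**Figure D2:**
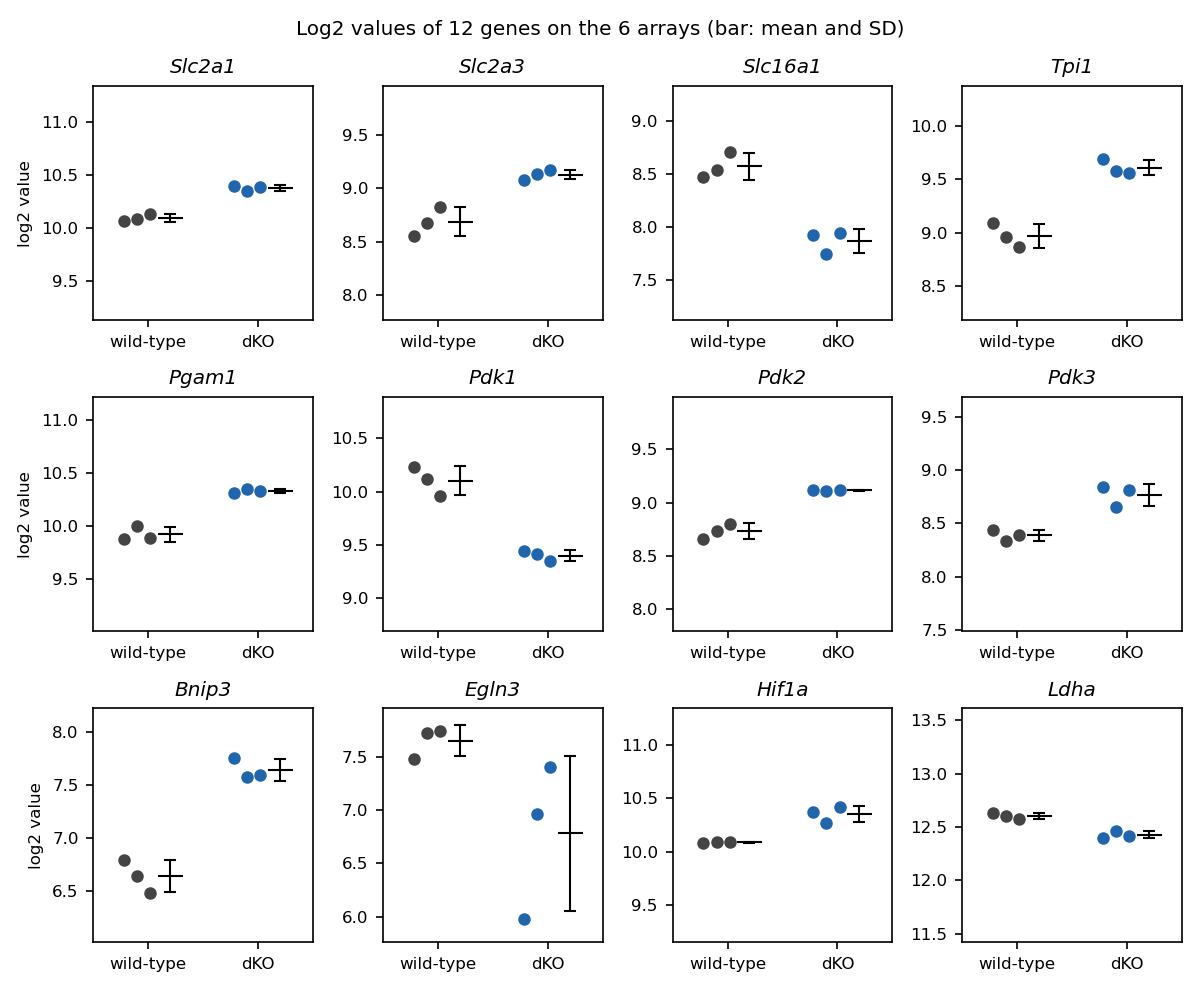
Log2 value of 12 members on each of the 3 wild-type and 3 dKO arrays, with a bar for the mean and SD of each group beside its points. Every panel spans the same length of the log2 scale. The groups part for all 12, and the dKO values of *Egln3* spread over more of the scale than those of the other 11.

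From hexokinase to phosphofructokinase, the steps that trap glucose and commit it to glycolysis, 1 of 5 measured members rose and 4 were not called. The share called was 20%, against 23.1% of all genes and 39.8% of the brighter genes. *Pfkl*, the liver-type subunit of phosphofructokinase, had log2 values of 8.46, 8.42 and 8.21 in wild-type and of 8.73, 8.82 and 8.76 in dKO cells. The groups did not overlap, and the increase was 1.33-fold (log2 fold change 0.41, SE 0.07, adjusted p = 0.00183). The other subunits did not follow it past the threshold. *Pfkp*, the platelet-type subunit, had a log2 fold change of -0.03 (95% interval -0.16 to 0.10, adjusted p = 0.764), and its groups overlapped. *Pfkm*, the muscle-type subunit, had values of 7.89, 7.89 and 7.92 against 7.84, 7.83 and 7.82, so that the dKO arrays lay below by little (-0.07, interval -0.17 to 0.03, adjusted p = 0.317). Among the hexokinases, *Hk1* had values of 9.96, 9.96 and 9.95 against 9.92, 9.98 and 10.03 (0.02, interval -0.09 to 0.12, adjusted p = 0.833). *Hk2*, the form induced in activated T-cells, lay between 5.32 and 5.66 on all 6 arrays, below the array medians (-0.04, interval -0.22 to 0.15, adjusted p = 0.822).

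The enzymes that make and remove the sugar bisphosphate that activates phosphofructokinase were represented by *Pfkfb3* and *Pfkfb4*. *Pfkfb3*, whose product mostly makes the activator, had log2 values of 7.64, 7.54 and 7.54 in wild-type and of 7.22, 7.18 and 7.37 in dKO cells. The groups did not overlap, and dKO cells kept 80.4% of the wild-type level (log2 fold change -0.32, SE 0.06, adjusted p = 0.00376). *Pfkfb4* had values of 6.93, 6.80 and 6.92 against 6.94, 6.97 and 7.00 and was not called (0.08, interval -0.03 to 0.20, adjusted p = 0.314). Another form, *Pfkfb2*, which is among the related genes below, fell (-0.50, adjusted p = 2.14e-04).

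Of the steps as listed here, the run of enzymes from aldolase to pyruvate kinase, which turns the split sugar into pyruvate, was the most uniform. Of its 7 measured members 6 rose (85.7%, against 13.1% of all genes) and the median log2 fold change was 0.31. Of the brighter genes 39.8% were called in either direction. For all 7 every dKO array was above every wild-type array, as it was for 4199 of all 19752 genes. *Gapdh* and *Eno1* of this run were not analysed. Among other forms of these enzymes, in the related genes below, the muscle enolase *Eno3* fell (-0.58) and none was called higher. *Tpi1* (triosephosphate isomerase), which interconverts the triose phosphates, had log2 values of 9.09, 8.95 and 8.86 in wild-type and of 9.69, 9.58 and 9.56 in dKO cells. The gap between the groups exceeded the range within either, and the increase was 1.56-fold (log2 fold change 0.64, SE 0.07, adjusted p = 8.69e-05). *Pgam1*, a phosphoglycerate mutase, had values of 9.88, 10.005 and 9.89 against 10.31, 10.35 and 10.33, a 1.32-fold increase (0.40, SE 0.05, adjusted p = 3.16e-04). *Pgk1*, which encodes phosphoglycerate kinase, had values of 10.44, 10.46 and 10.41 against 10.55, 10.51 and 10.50 and was not called (0.08, interval -0.02 to 0.18, adjusted p = 0.249).

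The aldolases rose, *Aldoc* from 6.44 ± 0.01 to 6.74 ± 0.08 (SD, n = 3 each; log2 fold change 0.31, adjusted p = 0.00187) and *Aldoa* from 11.56 ± 0.03 to 11.76 ± 0.07 (0.20, adjusted p = 0.0167). *Eno2*, an enolase best known from neurons, had log2 values of 6.02, 5.54 and 5.88 in wild-type and of 6.35, 6.21 and 6.29 in dKO cells. Its wild-type arrays lay below the array medians and spread more widely than its dKO arrays (log2 fold change 0.47, SE 0.10, adjusted p = 0.00834). *Pkm*, which encodes pyruvate kinase, had values of 10.62, 10.72 and 10.54 against 10.96, 10.89 and 10.74, with a gap of little size between the groups (0.23, SE 0.07, adjusted p = 0.0329). The calls of *Pkm* and *Aldoa* were lost without some single arrays. The adjusted p of *Pkm* was 0.0752 without wild-type replicate 1, 0.106 without wild-type replicate 3, 0.113 without dKO replicate 1 and 0.102 without dKO replicate 2, and that of *Aldoa* was 0.0577 and 0.0527 without wild-type replicates 2 and 3 and 0.0699 without dKO replicate 2.

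At lactate dehydrogenase, which interconverts pyruvate and lactate, the change ran the other way. *Ldha*, the subunit that favours lactate production, had log2 values of 12.63, 12.61 and 12.58 in wild-type and of 12.40, 12.46 and 12.42 in dKO cells. The groups did not overlap, and dKO cells kept 88.3% of the wild-type level (log2 fold change -0.18, SE 0.05, adjusted p = 0.0173). Leaving out wild-type replicate 1, wild-type replicate 2 or dKO replicate 1 ended the call (adjusted p = 0.0561, 0.0639 and 0.053). *Ldhb*, the heart-type subunit, had values of 8.84, 8.81 and 8.83 against 8.73, 8.74 and 8.95, with dKO arrays on both sides of the wild-type arrays (-0.02, interval -0.16 to 0.12, adjusted p = 0.862).

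The pyruvate dehydrogenase kinases, which phosphorylate and switch off pyruvate dehydrogenase, moved in opposite directions. *Pdk1*, a target of Hif1a, had log2 values of 10.23, 10.12 and 9.96 in wild-type and of 9.44, 9.41 and 9.34 in dKO cells. Every dKO array lay far below the wild-type arrays, at 61.4% of the wild-type level (log2 fold change -0.70, SE 0.07, adjusted p = 6.69e-05). *Pdk2* had values of 8.66, 8.73 and 8.80 against 9.12, 9.11 and 9.11, and *Pdk3* of 8.44, 8.34 and 8.39 against 8.84, 8.65 and 8.81. Both rose 1.30-fold without overlap (0.38, adjusted p = 4.32e-04 for *Pdk2* and 0.0013 for *Pdk3*). *Pdha1*, the catalytic subunit that the kinases phosphorylate, rose 1.17-fold from 9.84 ± 0.01 to 10.07 ± 0.03 (SD, n = 3 each; 0.23, adjusted p = 0.00429).

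Among the 5 genes of oxygen sensing and hypoxia, 3 rose, 1 fell and 1 was not called. The share called was 80%, against 23.1% of all genes and 39.8% of the brighter genes. *Bnip3*, a target of Hif1a whose product acts in mitochondrial turnover and cell death, had log2 values of 6.80, 6.65 and 6.49 in wild-type and of 7.75, 7.57 and 7.59 in dKO cells. It was 1.99-fold higher, with a gap between the groups wider than the spread in either (log2 fold change 1.00, SE 0.08, adjusted p = 1.94e-05). That row shared 0 neighbours with *Bnip3* in probe order, and the row that lay beside the gene's RefSeq neighbours rose by 0.43, as given with the other genes of more than 1 row. *Hif1a* itself had values of 10.08, 10.09 and 10.09 against 10.37, 10.27 and 10.42, a 1.20-fold increase (0.27, SE 0.05, adjusted p = 0.00373). The array measures the transcript, whereas oxygen acts on the protein.

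The Egln prolyl hydroxylases, which mark Hif1a for destruction, differed in direction. *Egln1*, the main oxygen sensor of most cells, had log2 values of 8.70, 8.64 and 8.68 in wild-type and of 8.996, 8.93 and 8.98 in dKO cells, a 1.22-fold increase without overlap (0.29, SE 0.05, adjusted p = 0.00126). *Egln3*, itself induced by Hif1a, had values of 7.48, 7.73 and 7.74 against 5.98, 6.96 and 7.40. The dKO arrays were all below the wild-type arrays but far apart from each other, with a mean of 6.78 ± 0.73 (SD, n = 3) against 7.65 ± 0.14. The log2 fold change was -0.87 (standard error 0.28, interval -1.49 to -0.25, adjusted p = 0.0485). Leaving out dKO replicate 1 gave -0.47 and leaving out dKO replicate 3 gave -1.18 (adjusted p = 0.0333 and 0.00892). The adjusted p was 0.0688, 0.123 and 0.114 when wild-type replicates 1, 2 and 3 were left out, 0.0824 when dKO replicate 2 was, and 0.232 with an intensity trend and robust variances. *Vhl*, which encodes the ubiquitin ligase subunit that binds hydroxylated Hif1a, was not called (0.15, interval 0.02 to 0.29, adjusted p = 0.102).

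In the pentose phosphate pathway 1 of 3 measured members was called (33.3%, against 23.1% of all genes and 39.8% of the brighter genes). *Tkt* (transketolase), of the non-oxidative branch, had log2 values of 7.89, 7.98 and 7.87 in wild-type and of 8.18, 8.15 and 8.02 in dKO cells (log2 fold change 0.21, SE 0.06, adjusted p = 0.0244). The groups did not overlap, but the adjusted p was 0.0539 after quantile normalization again, 0.0697 after cyclic loess normalization and 0.0695, 0.076, 0.0841 and 0.0871 without wild-type replicates 1 and 3 and dKO replicates 1 and 2. *Taldo1* (transaldolase), of the same branch, had values of 8.14, 8.15 and 8.12 against 8.34, 8.13 and 8.13, so that a single dKO array stood above the other 5 (0.07, interval -0.07 to 0.21, adjusted p = 0.527). *Pgd*, an NADPH-producing dehydrogenase of the oxidative branch, had values of 10.29, 10.40 and 10.32 against 10.34, 10.42 and 10.45, which overlapped (0.07, interval -0.05 to 0.18, adjusted p = 0.446).

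Of the members, 4 had more than 1 row on the array, and their rows did not all carry the same change. The row of *Bnip3* used above had a log2 fold change of 1.00, and its other row had one of 0.43 (SE 0.06, adjusted p = 7.45e-04 in a fit over all rows). Both rose, and the sizes differed. The 3 rows of *Pgam1* had changes of 0.40, 0.35 and 0.35, those of *Pgk1* had 0.08, 0.08 and 0.07, and the pair of *Ldhb* had -0.02 and 0.04. Some of these rows have equal values and may share probes. On the array, probe numbers mostly follow the order of the genome, so the 10 named rows on each side of a row were set against the 10 genes on each side of the gene in RefSeq. The 28 members with a single row shared 5 to 16 of these neighbours. The brightest rows of *Bnip3*, *Pgam1* and *Pgk1* shared 0, while another row of each shared 8, 8 and 11, and for *Ldhb* the brightest row shared 12 and the other shared 0. RefSeq lists pseudogenes of *Pgk1*, *Pgam1* and *Ldhb*, and also of *Aldoa* and *Ldha*, and near-identical copies can share signal, so the values of these genes are uncertain to that extent. From the rows beside their own neighbours, *Bnip3* rose by 0.43 and *Pgam1* by 0.35 on the log2 scale, and *Pgk1* had 0.07 and was not called.

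**Figure D3:**
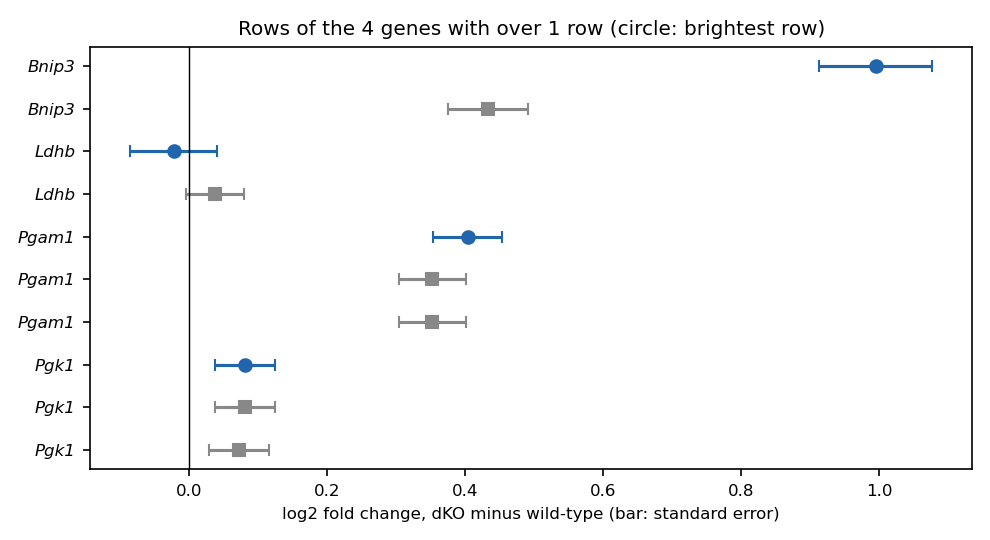
Log2 fold change, dKO minus wild-type, of every row of the 4 members with more than 1 row, with standard errors as bars; blue circles are the brightest rows and grey squares the others. The brightest row of *Bnip3* lies at 1.00 and its other row at 0.43, while the rows of *Pgam1*, *Pgk1* and *Ldhb* lie near each other.

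Related genes of the same pathways were set beside the members. Among 42 other measured genes of glycolysis and sugar storage, 7 rose, 7 fell and 28 were not called, with a median log2 fold change of 0.03. The share called was 33.3%, against 23.1% of all genes and 39.8% of the brighter genes. Each related list holds dim as well as bright genes. *Gaa*, the lysosomal enzyme that releases glucose from glycogen, rose from 7.90 to 8.89 on the log2 scale (1.00, adjusted p = 2.0e-06), and *Ldhd*, a mitochondrial D-lactate dehydrogenase, rose from 6.93 to 7.89 (0.96, adjusted p = 9.6e-06). *Eno3*, the muscle enolase, fell from 7.98 to 7.40 (-0.58, adjusted p = 1.6e-04), and *Slc2a9*, a urate transporter of the glucose transporter family, from 8.88 to 8.46 (-0.42, adjusted p = 1.21e-04). Of 13 other pentose phosphate genes 5 were called (38.5%, against 23.1% of all genes and 39.8% of the brighter genes), and they rose. They were *Rpia* (0.42) and *Prps1* (0.36), which act in making ribose phosphate and its activated form, *Prps2* (0.18), *H6pd* (0.16) and *Tigar* (0.18).

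Of 33 other genes of pyruvate oxidation and the TCA cycle, 11 rose, 1 fell and 21 were not called (median log2 fold change 0.09). In all 36.4% were called and 33.3% were higher, against 23.1% and 13.1% of all genes. Of the brighter genes 39.8% were called in either direction. *Mpc1*, a subunit of the carrier that brings pyruvate into mitochondria, rose from 9.70 to 10.14 on the log2 scale (0.44, adjusted p = 1.18e-04), and *Mdh1*, cytosolic malate dehydrogenase, from 9.57 to 9.94 (0.38, adjusted p = 7.98e-04). The gene that fell was *Idh1*, cytosolic isocitrate dehydrogenase (-0.49, adjusted p = 0.00806). Of 39 other genes of the hypoxia pathway, 8 rose and 6 fell (median 0.01). *Cxcr4*, a chemokine receptor (0.93, adjusted p = 1.47e-04), and *Epas1*, which encodes Hif2a (0.45, adjusted p = 5.52e-04), rose. *Hif3a* (-0.55, adjusted p = 5.05e-05) and *Ndrg1* (-0.45, adjusted p = 2.06e-04) fell. In all 35.9% of these 39 genes, dim ones included, were called, against 23.1% of all genes and 39.8% of the brighter genes.

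Of 39 regulators of glucose metabolism, 10 rose and 5 fell, with a median log2 fold change of 0.06. The share called was 38.5%, against 23.1% of all genes and 39.8% of the brighter genes. *Igf1r*, a growth factor receptor, rose from 8.24 to 9.40 on the log2 scale (1.16, adjusted p = 6.79e-06), and *Arrdc4*, a relative of *Txnip* whose product lowers glucose uptake, from 5.95 to 6.85 (0.89, adjusted p = 2.82e-05). *Prkag1*, a subunit of the energy sensor AMPK (-0.38, adjusted p = 2.49e-04), and *Mlxip*, which encodes the glucose-responsive transcription factor MondoA (-0.29, adjusted p = 0.00132), fell. Of the other AMPK subunits listed, *Prkaa1* (0.17) and *Prkab1* (0.18) rose, *Prkab2* (-0.20) fell and *Prkaa2* was not called. Genes of dividing cells were listed because dividing cells raise glycolysis. Of 21 such genes 7 rose, 2 fell and 12 were not called (42.9% called, against 23.1% of all genes and 39.8% of the brighter genes). The 7 that rose act in DNA replication, with the smallest p for *Mcm4* (0.42), *Rrm1* (0.32), *Mcm2* (0.48) and *Mcm5* (0.27). The 2 that fell were *Mki67* (-0.62, adjusted p = 0.00617) and *Top2a* (-0.48, adjusted p = 0.0439), which mark cycling cells. The mean log2 value of this list was 7.31 to 7.54 on the wild-type arrays and 7.33 to 7.54 on the dKO arrays, and its part in the changes of the members was not tested.

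**Figure D4:**
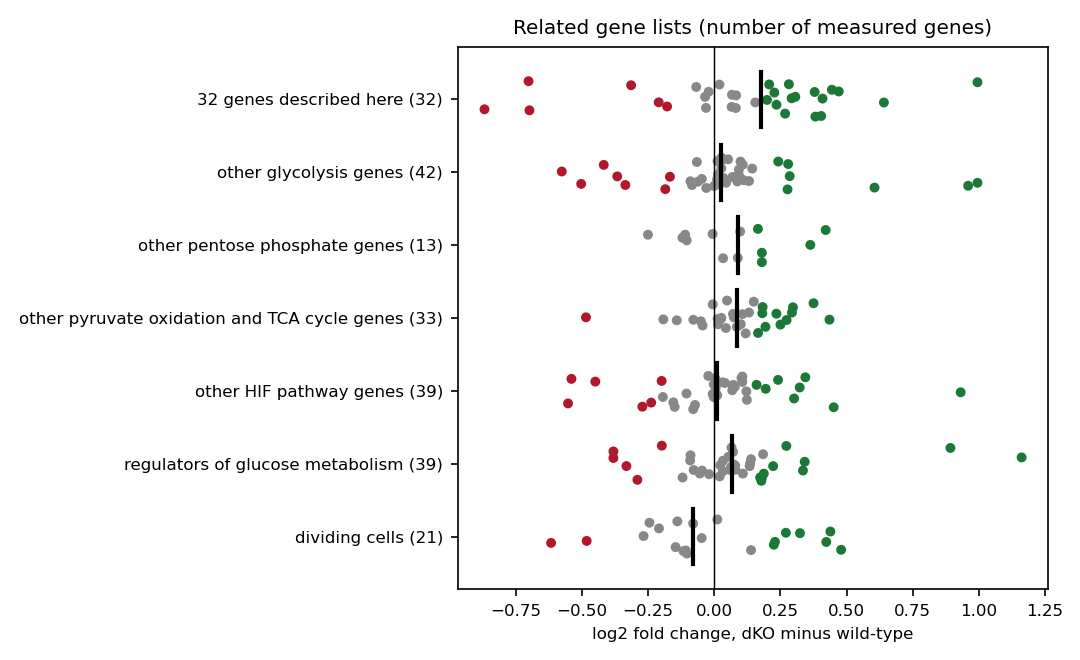
Log2 fold change, dKO minus wild-type, of every measured gene of the members' set and of the related lists, coloured by call, with the median of each list as a line. The medians of the related lists lie between -0.08 and 0.09, and that of the members lies at 0.18.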

How the data were processed

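The authors sorted the thymocytes, extracted total RNA and hybridized 6 Affymetrix mouse ST arrays. The Methods name the Gene array, which the row annotation fits, while the design text names the Exon array. The deposited values are log2 signals made by the authors with Partek and RMA, which corrects background, equalizes the arrays and summarizes probes to 1 value per transcript row. No version of either is given in the sources used here. RMA hides a shift shared by most genes and compresses differences of dim genes. No renormalization or filter was added in the main fit.

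Of 25254 rows, 21496 had 1 gene symbol in the array annotation, 1565 had several and 2193 had none. Only rows with 1 symbol were used, with symbols updated from RefSeq (21415 matched and 81 kept the older symbol). The brightest row was kept for the 938 genes with more than 1, which left 19752 genes. limma 3.58.1 in R 4.3.3 fitted genotype, and p-values were adjusted by Benjamini-Hochberg over all genes, with a threshold of 0.05. Folds are powers of 2 of the difference of log2 means. The code was tested on simulated data. Python 3.11.15 and matplotlib 3.10.9 were used for promoter matches and figures.

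The members and related lists were chosen by function, with earlier results of these data known. All measured members are named, and of each related list up to 4 genes with the smallest p and any gene that makes up a count of 5 or fewer were open to naming. *Txnip* is mentioned for its relation to *Arrdc4*, *Pfkfb2* for its relation to *Pfkfb3* and *Pfkfb4*, and other AMPK subunits for theirs to *Prkag1*. Alternatives were quantile and cyclic loess normalization, the brightest 14814 or 9876 genes, the mean of a gene's rows, all rows, robust variances with an intensity trend, an unmoderated t-test per gene (which the Methods do not state for the arrays), each array left out and a block for replicate number. The row beside a gene's RefSeq neighbours was added after the data had been seen.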

Additional observations from a re-analysis of the deposited data

How the results depend on the processing

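Of 22 called members, 13 kept their call and direction under all 16 alternatives (*Slc2a1*, *Slc2a3*, *Slc16a1*, *Aldoc*, *Tpi1*, *Pgam1*, *Pdk1*, *Pdk2*, *Pdk3*, *Pdha1*, *Hif1a*, *Egln1* and *Bnip3*), although *Bnip3* moved to 0.43 from the row beside its RefSeq neighbours and to 0.71 as the mean of its rows. The median log2 fold change of the members was 0.18, 0.1483 after quantile normalization again, 0.1323 after cyclic loess normalization, and 0.1465 to 0.1931 with each array left out. With each array left out, 13 to 16 members were called higher and 3 to 6 lower. The count of 3 came without wild-type replicate 2, where *Slc16a3*, *Ldha* and *Egln3* lost their calls. The unmoderated t-test with Benjamini-Hochberg adjustment called 1392 genes higher and 1173 lower, against 2587 and 1976 by limma, and 11 members higher and 5 lower. At an unadjusted p of 0.05 it called 17 and 6 members. It lost *Pfkl*, *Pfkfb3*, *Aldoa*, *Eno2*, *Pkm*, *Egln3* and *Tkt* (adjusted p = 0.0567 to 0.287) and gained *Pfkm* (adjusted p = 0.0404). The cause was not tested.

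Members that were not called changed sign under some settings, all near 0. *Hk1* was -0.0105 after cyclic loess normalization and *Ldhb* was 0.0079 as the mean of its rows. With each array left out, *Hk1* ranged from -0.007 to 0.0465, *Hk2* from -0.1059 to 0.0608, *Pfkp* from -0.0716 to 0.0093, *Ldhb* from -0.0933 to 0.0143 and *Taldo1* from -0.0038 to 0.1034. With replicate number as a block, 16 members were higher and 6 lower, with the same calls for all 32, and 2574 genes were higher and 1970 lower. Deviations of same-numbered arrays correlated at 0.099, 0.024 and 0.07, and those of different-numbered arrays at -0.098 to 0.04. All are small, and the main fit did not take the numbers as pairs, but these values do not exclude pairing. The number of arrays limits precision, and *Hk2* and the wild-type values of *Eno2* lay below the array medians.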
